A study of Mus musculus with 56 samples.

Results

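Inflammasomes are cytosolic protein complexes that macrophages assemble when a sensor meets a microbial product or a sign of cell damage. Sensors such as NLRP3, AIM2, NLRC4, pyrin (encoded by Mefv) and NLRP1B recruit caspase-1, directly or through the adaptor ASC (encoded by Pycard), and caspase-1 cuts pro-IL-1β, pro-IL-18 and gasdermin D. Caspase-11, the product of mouse Casp4, senses cytosolic lipopolysaccharide and also cuts gasdermin D, whose pores kill the cell by pyroptosis. Transcription of several of these genes is known to rise in a priming step that follows Toll-like receptor signalling, to which the NF-kB subunit p65 contributes.

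Chromatin immunoprecipitation sequencing (ChIP-seq) peaks were examined at 10 inflammasome genes: the sensors Nlrp3, Aim2, Nlrc4, Mefv and Nlrp1b, the adaptor Pycard, the caspases Casp1 and Casp4, and the effectors Gsdmd and Il18. A peak counted for a gene when the deposited annotation named that gene, which is the gene with the nearest transcription start. This took in 1545 of 1610519 peaks over 56 peak lists, and 10 of 20352 genes with any peak. In mm10 (RefSeq), Nlrp3 lies at chr11:59541569-59566955, Aim2 at chr1:173349547-173466040, Nlrc4 at chr17:74426255-74459144, Mefv at chr16:3706974-3718211 and Nlrp1b at chr11:71152574-71242514. Pycard lies at chr7:127991373-127993867, Gsdmd at chr15:75862144-75867408 and Il18 at chr9:50554700-50581841. Casp1 at chr9:5298517-5307281 and Casp4 at chr9:5308849-5336791 are neighbours. The cells were wild-type mouse bone marrow-derived macrophages (BMDMs), grown from marrow of animals of 8 to 12 weeks for 6 days with L929 cell supernatant, the source of the growth factor M-CSF.

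In the first experiment untreated BMDMs were compared with BMDMs given interleukin-4 (IL-4, 20 ng/ml), the cytokine of alternative polarization, for 1 hr. The antibodies were against RNA polymerase II (RNAPII) phosphorylated at serine 5 (RNAPII-pS5, the initiating form) or serine 2 (RNAPII-pS2, the elongating form), acetylated histone H3 lysine 27 (H3K27Ac, a mark of active promoters and enhancers), the myeloid factor PU.1, the acetyltransferase p300 and the deacetylases HDAC1, HDAC2 and HDAC3. In the second, RNAPII-pS5, RNAPII-pS2 and p65 were mapped in 4 groups. Cells of ctrl/ctrl had neither treatment and those of ctrl/LPS had lipopolysaccharide (LPS) for 1 hr at 100 ng/ml per the labels. IL-4 pretreatment for 24 hr was given without LPS in IL-4 PT/ctrl and before LPS in IL-4 PT/LPS. Each of the 28 combinations of antibody and condition had 2 replicate libraries. Labels number the replicates without saying whether they come from separate animals. The study describes its ChIP-seq replicates as biologically independent, and p-values measure the spread between these libraries.

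For all antibodies but H3K27Ac the value of a peak was its MACS2 score, a −log10 p-type value that rises with enrichment and also with sequencing depth. For H3K27Ac it was normalized tag signal in regions of 1001 bp. Depth is unknown, since the lists hold no read totals, and the number of peaks ran from 8440 to 71027 per library. Differences are therefore on the log2 scale after each library was centred on the median of the features with a peak in every library. A gene or site was called at a Benjamini-Hochberg adjusted p of at most 0.05 over every feature tested by limma, and the share of all features called is given beside the counts.

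Some libraries stood apart. The p300 untreated replicate 1 held 44787 peaks with a median score of 11.04, against 66710 to 69360 peaks and medians of 18.2 to 19.2 in the other p300 libraries. Peak names in the lists of RNAPII-pS2 after 1 hr of IL-4 or none carry the treatment opposite to the label, and the IL-4-responsive genes Socs1 and Cish differed by −5.48 and −5.31 in the direction against them (for RNAPII-pS5, Socs1 rose by 1.79). The LPS-responsive genes Il1b and Tnf rose for RNAPII-pS5 by 2.29 and 1.21 with LPS. All 7 macrophage markers carried peaks in every library of both RNAPII-pS5 sets and of RNAPII-pS2 in the LPS experiment, and 5 of the 7 carried H3K27Ac regions (Cd68 and Lyz2 had none). Of 17 markers of other blood and stromal cells, 5 to 10 had a peak in some library of these sets and 2 or 3 in each library. In the 1 hr experiment the B cell marker Ms4a1 had 598.3 to 867.2 of H3K27Ac and 43.58 to 102.61 of RNAPII-pS5, and the dendritic cell marker Flt3 167.7 to 232.1 and 43.72 to 67.88, in all 4 libraries, while the T cell markers Cd3e and Cd3g, the mast cell markers Cpa3 and Mcpt4 and the stromal markers Col1a1 and Pdgfra had none of either. Where summed marker scores, which are not centred, moved between groups they are given beside the results, and their part in them was not tested. Such a sum can rest largely on 1 marker, so it does not measure the markers as a class. In the LPS experiment Lyz2 ran from 4.86 to 125.79 of RNAPII-pS5 and from 11.4 to 117.63 of RNAPII-pS2. The study counts Lyz2 among the genes repressed by IL-4.

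The inflammasome genes were covered by peaks in nearly every list. Aim2 had 305 peaks, Nlrp3 had 250, Mefv had 235, Nlrp1b had 174 and Nlrc4 had 155, each with at least 1 peak in all 56 lists. Gsdmd had 128 peaks in 55 lists, Casp4 87 in 55, Pycard 87 in 49, Casp1 79 in 54 and Il18 45 in 35. Pycard, the gene of the common adaptor, had no HDAC3 peak. Promoter peaks made up 18.8% of the members' peaks and 13.1% of all peaks, intron peaks 38.6% and 40.9%, and intergenic peaks 33.8% and 39.0%. Peaks are thus mostly outside the promoters, and a gene's nearest start does not show that a distal peak acts on it.

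When peaks of PU.1, p300, HDAC1, HDAC2, HDAC3 and p65 were merged by overlap of at least 1 bp, the members held 84 loci, of which 22 (26.2%) had peaks of all 6 antibodies. Over all genes it was 12931 of 145582 loci (8.88%). Nlrp3, Aim2, Nlrc4 and Mefv each had 4 loci with all 6 antibodies and Nlrp1b had 2, while Casp1, Casp4, Gsdmd and Il18 had 1 each and Pycard none. At 6 loci every library of all 6 antibodies held a peak: Casp1 at +74 bp, Mefv at +3205 bp, Nlrp1b at −20823 and −166 bp, and Nlrp3 at −1173 and −53 bp from the start. At the other end, 39 of the 84 loci had a peak of 1 antibody.

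**Figure D1:**
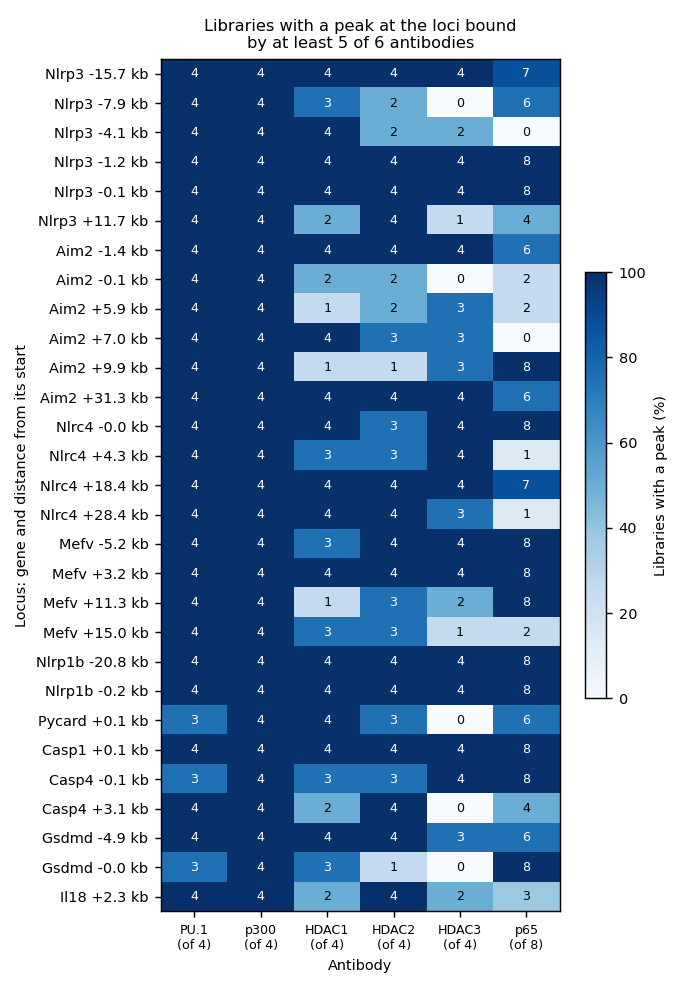
Share of libraries with a peak (colour, in %, with the number of libraries in each cell) at the inflammasome gene loci that at least 5 of the 6 antibodies shared, with the antibody on one axis and the gene and distance from its start on the other. Nlrp3 at −1.2 kb and at its start has a peak in all 4 or 8 libraries of each antibody, while at Nlrp3 −4.1 kb 0 of 8 p65 libraries has one.

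The sequences of the distal sites on which the results below turn are given for mm10 as the 201 bases around the peak centre, on the plus strand. Capitals mark matches, on either strand, to the NF-kB consensus, the PU.1 core GAGGAA (read TTCCTC on the other strand) or the AP-1 motif TGANTCA. They are shown because p65 or p300 scores there differed most plainly between groups, or because every library held a peak.
Nlrp3 p65 site at −1.2 kb, chr11:59541375-59541575, intergenic by the annotation and holding 1 NF-kB match: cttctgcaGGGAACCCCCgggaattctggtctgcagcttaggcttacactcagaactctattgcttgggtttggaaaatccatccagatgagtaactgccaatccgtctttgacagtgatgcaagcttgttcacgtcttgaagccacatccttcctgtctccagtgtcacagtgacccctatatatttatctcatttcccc
Nlrp3 p65 site at +1.5 kb, chr11:59544082-59544282, in intron 2, holding 1 NF-kB and 1 AP-1 match: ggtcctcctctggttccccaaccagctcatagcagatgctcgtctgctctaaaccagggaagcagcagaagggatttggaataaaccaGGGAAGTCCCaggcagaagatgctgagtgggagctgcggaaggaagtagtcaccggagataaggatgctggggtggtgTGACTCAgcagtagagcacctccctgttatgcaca
Nlrp3 p300 site at −4.1 kb, chr11:59538495-59538695, intergenic, holding 1 PU.1 core: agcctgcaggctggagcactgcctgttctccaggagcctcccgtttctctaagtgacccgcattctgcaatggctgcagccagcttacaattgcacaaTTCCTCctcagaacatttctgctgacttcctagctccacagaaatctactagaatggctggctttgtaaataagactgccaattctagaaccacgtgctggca
Casp4 p65 site at +3.1 kb, chr9:5311824-5312024, holding 2 PU.1 cores and 1 AP-1 match: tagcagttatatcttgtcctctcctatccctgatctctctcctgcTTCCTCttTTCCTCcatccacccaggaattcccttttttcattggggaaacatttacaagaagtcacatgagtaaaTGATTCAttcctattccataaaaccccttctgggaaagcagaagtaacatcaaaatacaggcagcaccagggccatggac
Nlrp1b p65 site at −20.8 kb, chr11:71251450-71251650, holding 1 PU.1 core and 1 AP-1 match: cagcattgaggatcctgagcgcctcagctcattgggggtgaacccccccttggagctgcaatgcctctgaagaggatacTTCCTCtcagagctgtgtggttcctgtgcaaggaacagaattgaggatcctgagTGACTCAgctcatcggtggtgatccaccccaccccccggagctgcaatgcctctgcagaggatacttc

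Distances at Nlrp3 are counted from the downstream of 2 starts in the RefSeq promoter table. The other start is at base 59541569, so the site named −1.2 kb lies on it. The Nlrp1b site at −20.8 kb lies outside the Nlrp1b span given above, by the annotation in intron 8 of 12 of a non-coding transcript. It is named for Nlrp1b by the nearest start alone. RefSeq promoters (300 bases, mm10) were found for 9 of the 10 genes, 12 promoters in all, and none for Gsdmd. The NF-kB consensus was present in 3 of the 12 (4.51% of all 32851 promoters), the PU.1 core in 5 (28.3%), the STAT palindrome (TTC and GAA with 4 bases between) in 3 (6.95%) and the AP-1 motif in 0 (7.81%). Both Casp4 promoters and the upstream Nlrp3 promoter were the ones with an NF-kB match. The Casp4 promoters (chr9:5308599-5308898 and chr9:5308610-5308909) overlap and hold the same stretch, which is counted for both. Among windows of 201 bases at p65 sites, 5 of 36 of the members had the NF-kB consensus (11.9% of 37556), 19 the PU.1 core (35.5%) and 8 the AP-1 motif (23.4%). At p300 sites, 26 of 46 had the PU.1 core (41.4% of 67225). A match is a string of letters and not a bound site.

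The first question was how 1 hr of IL-4 alters acetylation near these genes. H3K27Ac signal rose at Mefv and Nlrc4 and fell at Aim2, Nlrp1b, Nlrp3 and Gsdmd, so that 6 of the 10 genes were called (36.2% of 13035 genes were). The median difference was −0.11 for the members and −0.01 for all genes. Between H3K27Ac replicates the spread was little above tag counting error, with a chi-square per region of 1.3 untreated and 1.25 with IL-4. Between libraries of different groups it was 18.8 to 20.5. The H3K27Ac standard errors thus hold little spread beyond counting, and whether these replicates are separate preparations was not tested. Mefv, the gene of the pyrin sensor, had a summed signal of 535.6 and 536.4 in untreated and 691.0 and 717.6 in IL-4-treated BMDMs (log2 difference 0.40 ± 0.04, SE, adjusted p = 0.00467). Most of this lay in the region at +3.2 kb, with 183.9 and 196.2 before and 320.5 and 327.4 after IL-4. Nlrc4, the sensor that acts with NAIP proteins on flagellin, went from 377.6 and 367.1 to 449.1 and 451.6 (0.28 ± 0.04, adjusted p = 0.00881). The 2 distal Nlrc4 regions carried it: at +18.3 kb the signal was 26.7 and 29.1 untreated and 50.7 and 47.2 with IL-4, and at +28.4 kb it was 165.8 and 160.9 against 217.9 and 214.5.

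Aim2, the sensor of cytosolic DNA, showed the opposite. Its summed H3K27Ac signal was 404.0 and 385.5 in untreated and 285.4 and 297.5 in IL-4-treated BMDMs (−0.43 ± 0.05, adjusted p = 0.00603). The region at −8.6 kb went from 52.2 and 47.8 to 24.8 and 26.4, that at −0.9 kb from 242.8 and 234.6 to 180.1 and 197.5, and that at +31.3 kb from 109.0 and 103.1 to 80.5 and 73.6. In all 3 the groups did not overlap. For these 3 genes the call was kept whichever library was left out.

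Smaller decreases were called at 3 genes. Nlrp1b, the sensor of anthrax lethal factor, had 1181.8 and 1166.3 untreated and 1009.9 and 1045.3 with IL-4 (−0.19 ± 0.04, adjusted p = 0.0258). Nlrp3, the sensor of membrane damage and ion flux, had 471.8 and 454.6 against 406.9 and 408.9 (−0.18 ± 0.04, adjusted p = 0.0292). Gsdmd, the gene of the pore-forming gasdermin D, had 634.5 and 592.4 against 542.7 and 538.4 (−0.18 ± 0.04, adjusted p = 0.0452). These calls rested on 2 libraries a group: those of Nlrp3 and Gsdmd were lost without any 1 of the 4 (adjusted p up to 0.107 and 0.121), and that of Nlrp1b without either untreated library or IL-4 replicate 1 (up to 0.0838). At Nlrp3 the region at −15.3 kb held most of the signal, 400.0 and 387.1 against 406.9 and 354.1, and the region at +11.8 kb had 71.8 and 67.5 untreated and no region and 54.8 with IL-4. Gsdmd had no region at its start. Its regions, at −4.8 and +13.8 kb, lie outside the gene's span and are named for Gsdmd by the nearest start alone.

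The other genes did not pass. Casp4 had 114.2 and 116.8 untreated and 131.8 and 130.5 with IL-4 (adjusted p = 0.0819), Casp1 had 302.4 and 281.2 against 296.7 and 311.7, Pycard 237.6 and 216.2 against 211.6 and 208.6, and Il18 22.7 and 23.7 against 21.2 and 21.2. Over the same libraries the summed signal of the macrophage markers was 3449.9 to 3590.6 untreated and 4521.1 to 4559.8 with IL-4, and that of the markers of other cells 1081.7 to 1088.7 and 879.4 to 884.4. Among the macrophage markers Csf1r had by far the widest range, 110.2 to 1337.0, against 1249.9 to 1491.0 for Emr1. The macrophage sum thus does not show a shift of these markers as a class.

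p300 sites moved in both directions after 1 hr of IL-4. Of 46 member sites tested, 9 were called, 3 higher and 6 lower, against 21.0% of 67229 sites, and the median difference was −0.09 for the members and 0.11 for all sites. The 3 sites that rose were at Nlrp3 and Nlrc4. The Nlrp3 site at −4.1 kb printed above had scores of 7.0 and 25.7 in untreated and 59.4 and 55.1 in IL-4-treated BMDMs (1.42 ± 0.28, adjusted p = 0.000284). The Nlrc4 sites coincide with the regions where its H3K27Ac rose: at +18.4 kb p300 scored 20.1 and 72.1 untreated and 99.2 and 136.4 with IL-4 (0.94 ± 0.22, adjusted p = 0.00194), and at +28.4 kb 28.4 and 83.1 against 134.5 and 129.2 (0.77 ± 0.21, adjusted p = 0.00747).

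The p300 sites that fell were at Aim2, Mefv, Nlrp1b and Gsdmd. The Aim2 site at −11.4 kb scored 39.5 and 80.3 untreated and 34.6 and 31.4 with IL-4 (−1.44 ± 0.25, adjusted p = 3.95e-05). At −8.5 kb, within the Aim2 region of lower H3K27Ac signal, the p300 scores were 11.7 and 44.8 against 19.1 and 17.8 (−0.98 ± 0.34, adjusted p = 0.0363), so the raw scores of the groups overlapped and the difference appears on the centred scale. The remaining called sites were Aim2 at +2.5 kb (adjusted p = 0.0153), Mefv at +15.0 kb (0.0157), Nlrp1b at +4.8 kb (0.0187) and Gsdmd at −5.0 kb (0.0379).

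These p300 differences depend on the centring, because untreated replicate 1 has low scores throughout: no member site was called without centring, and the Gsdmd site then changed sign (0.05). Without untreated replicate 1, with the remaining untreated library assumed to vary like the treated pair, 22.0% of 66364 sites were called. The Nlrp3 site at −4.1 kb (1.24, adjusted p = 0.00842), both Nlrc4 sites (0.0237 and 0.00473) and the Aim2 sites at −11.4 and −8.5 kb (0.00998 and 0.0309) still passed. The sites Aim2 +2.5 kb (0.0998), Mefv +15.0 kb (0.0854) and Gsdmd −5.0 kb (0.0644) did not, Nlrp1b +4.8 kb could not be tested, and 3 others passed: Nlrp3 at −74 bp, Mefv at +3.2 kb and Casp1 at +1.7 kb. Leaving out an IL-4 library instead ended the calls of both Nlrc4 sites (adjusted p up to 0.11 and 0.166) and of Aim2 at −8.5 kb (up to 0.231).

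No member passed for PU.1 or the deacetylases. For PU.1 it was 0 of 61 sites (0.0735% of all sites were called), for HDAC1 0 of 29 (0.0%), for HDAC2 0 of 28 (0.00404%) and for HDAC3 0 of 23 (1.32%), with 2, 4, 2 and 3 member sites at an unadjusted p of at most 0.05. Over all sites 7202 of 67996, 3595 of 27384, 2820 of 24751 and 2343 of 12567 had such a p. The median differences of the members were −0.07, 0.21, 0.14 and 0.46, and of all sites −0.05, −0.10, −0.01 and 0.09. The PU.1 site of Nlrc4 at +28.4 kb, where H3K27Ac and p300 rose, scored 15.7 and 9.6 untreated and 63.0 and 36.0 with IL-4 (1.62 ± 0.39, adjusted p = 0.212). HDAC1 at the Nlrp1b promoter (−170 bp) scored 32.0 and 23.3 against 12.7 and 9.0 (−1.04 ± 0.28, adjusted p = 0.378). HDAC3 at the Nlrp3 promoter (−79 bp) scored 15.3 and 16.9 against 32.7 and 31.6 (0.71 ± 0.32, adjusted p = 0.241). The HDAC3 label gives the catalogue number of the H3K27Ac antibody, so its target rests on the label's name. In each of these 3 cases the groups did not overlap, but with 2 libraries a group the difference did not pass the adjustment over all sites.

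**Figure D2:**
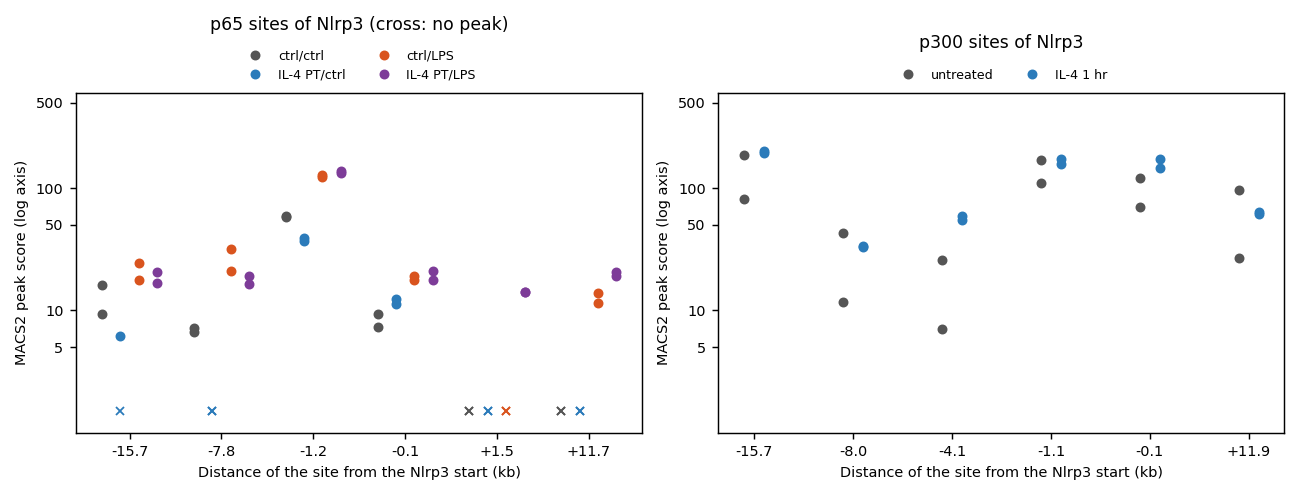
MACS2 scores (log axis) of p65 peaks (left) and p300 peaks (right) at the Nlrp3 sites, ordered by distance from the start in kb, each point 1 library, coloured by group, with a cross for no peak. The p300 score at −4.1 kb is 59.4 and 55.1 with IL-4 against 7.0 and 25.7 untreated, and p65 at +1.5 kb has a score in the IL-4 PT/LPS libraries alone.

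RNAPII at the members did not pass after 1 hr of IL-4 either. For RNAPII-pS5 0 of 10 genes were called (1.33% of all genes). At an unadjusted p of at most 0.05 there were 2, Aim2 and Il18 (2138 of 13481 over all genes). The median difference was −0.14. Aim2 had summed scores of 82.1 and 48.2 untreated and 43.3 and 44.0 with IL-4 (−0.48, adjusted p = 0.274), and Il18 had 6.84 and 4.77 untreated and no peak with IL-4 (adjusted p = 0.283). For RNAPII-pS2 0 of 9 genes were called (5.44%) and 1, Nlrp3, at an unadjusted p of at most 0.05 (2050 of 10617 over all genes). Nlrp3 had 6.24 and 7.32 in the libraries labelled untreated and 11.1 and 22.0 in those labelled IL-4 (1.29, adjusted p = 0.215), a direction that turns if the peak names and not the labels are right.

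The second experiment asked how LPS acts on these genes and how 24 hr of IL-4 changes that response. The comparisons share the ctrl/ctrl, IL-4 PT/ctrl or ctrl/LPS libraries, so they are not independent of each other. For RNAPII-pS5 9 of the 10 genes could be tested, all but Il18, and for RNAPII-pS2 all 10. Summed scores depend on gene length and number of peaks and are compared between conditions, never between genes.

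With LPS alone, RNAPII-pS5 rose at Casp4, Mefv and Aim2, 3 of 9 genes tested (30.1% of all genes were called). The median difference was 0.54 for the members and −0.45 for all genes tested. Casp4, the gene of caspase-11, had 9.99 and 8.41 in ctrl/ctrl and 26.7 and 28.0 in ctrl/LPS (1.90 ± 0.26, adjusted p = 0.00429). Mefv had 42.2 and 40.5 against 60.7 and 60.1 (0.87 ± 0.14, adjusted p = 0.00559). Neither call was lost on leaving out any library. The Mefv rise lay at the intergenic site at −4.8 kb, with 11.1 and 10.6 in ctrl/ctrl and 38.0 and 36.7 in ctrl/LPS. Its sites at +3.2 kb (8.69 and 8.02 against 5.86 and 8.52) and +11.4 kb (14.1 and 11.8 against 12.0 and 9.71) did not rise. That at +18.8 kb had no peak with LPS. With no intergenic peaks 1 member was called. With promoter peaks alone the Casp4 difference was −1.40 (adjusted p = 0.171), since both ctrl/ctrl libraries have a peak annotated promoter near the start and both ctrl/LPS libraries have peaks annotated intron alone there. Aim2 had 12.9 and 11.5 against 15.7 and 25.6 (1.04 ± 0.31, adjusted p = 0.0440), a call kept only without ctrl/LPS replicate 1 and lost without any of the other 7 (up to 0.153).

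Nlrp3 RNAPII-pS5 was 31.8 and 38.0 in ctrl/ctrl and 39.9 and 40.9 in ctrl/LPS (0.54 ± 0.20, adjusted p = 0.0879), which did not pass. The highest peak over its start (+269 bp) scored 14.1 and 18.5 in ctrl/ctrl, 13.8 and 9.5 in IL-4 PT/ctrl, 39.9 and 31.5 in ctrl/LPS, and 30.7 and 34.9 in IL-4 PT/LPS, so that LPS libraries did not overlap the others. A second peak there scored 6.58 and 11.6 in ctrl/ctrl and 3.26 in IL-4 PT/ctrl replicate 1. Each LPS library had a single peak, so these scores set the higher of split peaks against an unsplit one. The highest peak is annotated promoter in the 4 libraries without LPS and intron in the 4 with LPS. With promoter peaks alone the Nlrp3 difference was −2.97 (adjusted p = 0.00896). Nlrp1b was 43.2 and 33.1 against 37.1 and 39.5, Nlrc4 12.9 and 13.0 against 6.81 and 9.72, Casp1 9.29 and 8.11 against 17.5 and 9.52, Pycard 7.49 and 5.58 against 4.45 and 5.48, and Gsdmd 45.9 and 29.9 against 22.2 and 8.31. Il18, the gene of the caspase-1 substrate IL-18, had an RNAPII-pS5 peak in 1 library, ctrl/ctrl replicate 1, with 7.63. The summed RNAPII-pS5 score of the macrophage markers was 514.94 to 537.43 in ctrl/ctrl and 274.37 to 330.91 in ctrl/LPS, and that of the other markers 71.39 to 98.74 and 86.73 to 88.06.

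RNAPII-pS2 with LPS rose at Casp4 and Aim2 and fell at Nlrp3 and Gsdmd, 4 of 10 genes (34.0% of all genes were called). The median was 0.02 for the members and −0.27 for all genes. Casp4 had 21.1 and 16.0 in ctrl/ctrl and 46.8 and 42.7 in ctrl/LPS (1.06 ± 0.23, adjusted p = 0.0122). Aim2 had 65.2 and 59.2 against 97.0 and 96.3 (0.41 ± 0.13, adjusted p = 0.0440). Nlrp3 had 73.7 and 82.1 against 50.2 and 52.2 (−0.83 ± 0.15, adjusted p = 0.00563), and Gsdmd 51.9 and 52.2 against 26.2 and 36.6 (−0.97 ± 0.23, adjusted p = 0.0174). Most of the Gsdmd sum lay at the intergenic site at −5.0 kb, with 34.7 and 42.6 against 22.2 and 30.2. Near its start (+105 bp) Gsdmd scored 8.93 and 9.58 against 3.97 and 6.46. Mefv and Nlrp1b had higher summed scores with LPS, 68.6 and 77.9 against 101.5 and 94.0 and 60.0 and 65.1 against 94.7 and 104.7, without passing the test. The macrophage markers summed to 574.58 to 663.78 and 524.58 to 542.65, and the markers of other cells to 179.93 to 186.68 and 253.25 to 274.04.

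The direction for Nlrp3 RNAPII-pS2 rests on which peaks are summed. Over its start each ctrl/ctrl library had 3 peaks, with scores of 23.6, 21.1 and 4.87 in replicate 1 and 24.8, 26.5 and 4.07 in replicate 2, and each ctrl/LPS library had 1 peak, with 31.3 and 28.6, so the sum there adds 3 scores against 1. The peak at −15.7 kb scored 21.2 and 19.0 against 10.9 and 11.3. The Nlrp3 difference was 0.10 without intergenic peaks, 0.04 with the highest peak alone and 0.70 with promoter peaks alone. That of Casp4 was −0.18 with the highest peak alone and −3.36 with promoter peaks alone, and that of Aim2 was −1.43 without intergenic peaks. The Nlrp3 call was kept whichever library was left out. The Casp4 call was lost without ctrl/ctrl replicate 2 or ctrl/LPS replicate 1 (adjusted p up to 0.059), the Gsdmd call without either ctrl/ctrl library or ctrl/LPS replicate 1 (up to 0.085), and the Aim2 call without any library but the IL-4 PT/ctrl pair (up to 0.145).

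**Figure D3:**
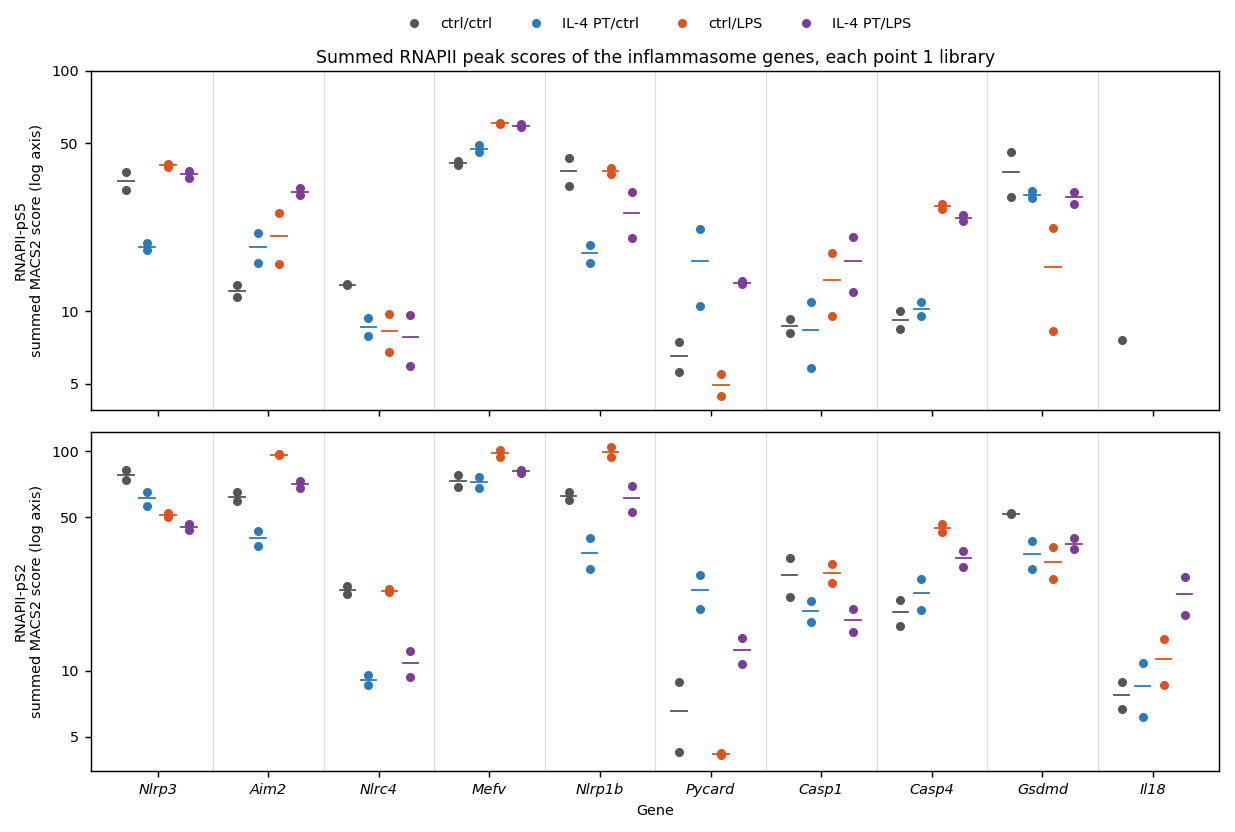
Summed MACS2 scores of RNAPII-pS5 and RNAPII-pS2 peaks at the inflammasome genes in the 4 groups of the LPS experiment, each point 1 library, with a bar at the mean of a group, on a log axis. Casp4 stands at 26.7 and 28.0 in ctrl/LPS for RNAPII-pS5 against 9.99 and 8.41 in ctrl/ctrl, and Nlrp1b is lowest in IL-4 PT/ctrl, at 18.9 and 15.9.

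IL-4 for 24 hr without LPS lowered RNAPII-pS5 at the sensor genes Nlrp3 and Nlrp1b, 2 of 9 members (10.3% of all genes were called). Nlrp3 had 31.8 and 38.0 in ctrl/ctrl and 19.2 and 18.0 in IL-4 PT/ctrl (−0.98 ± 0.20, adjusted p = 0.0273). Nlrp1b had 43.2 and 33.1 against 18.9 and 15.9 (−1.20 ± 0.27, adjusted p = 0.0354). At both genes the groups did not overlap. The median was −0.20 for the members and 0.01 for all genes. The Nlrp3 call was kept only without 1 of the ctrl/LPS libraries (up to 0.119 otherwise) and the Nlrp1b call only without 1 of the IL-4 PT/LPS libraries (up to 0.16), and without centring Nlrp1b had an adjusted p of 0.0528. With the highest peak of a gene alone 0 members were called. The macrophage markers also had lower sums, 514.94 to 537.43 in ctrl/ctrl and 343.85 to 369.39 in IL-4 PT/ctrl, and the markers of other cells 71.39 to 98.74 and 88.56 to 100.3. Lyz2 alone ran from 4.86 to 125.79 over the 8 libraries of the set.

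RNAPII-pS2 after 24 hr of IL-4 fell at the sensor genes Aim2, Nlrc4 and Nlrp1b and rose at Pycard, 4 of 10 genes (20.1% of all genes were called). The median was −0.37 for the members and −0.07 for all genes. Aim2 had 65.2 and 59.2 in ctrl/ctrl and 37.1 and 43.4 in IL-4 PT/ctrl (−0.56 ± 0.13, adjusted p = 0.0225). Nlrc4 had 24.2 and 22.4 against 9.56 and 8.60 (−1.29 ± 0.32, adjusted p = 0.0279), and Nlrp1b 60.0 and 65.1 against 29.0 and 40.2 (−0.81 ± 0.19, adjusted p = 0.0256). Pycard, which encodes the adaptor that joins sensor to caspase-1, had 4.25 and 8.85 against 19.2 and 27.4 (1.97 ± 0.50, adjusted p = 0.0311). None of its RNAPII-pS2 sites lay at the promoter. They were at +2.3 kb, in the 3' UTR, and at +4.9 and +9.6 kb, past the gene's end. The farther sites are named for Pycard by the nearest start alone. At +2.3 kb the scores were none and 5.68 in ctrl/ctrl and 7.02 and 8.25 in IL-4 PT/ctrl.

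For RNAPII-pS5 the Pycard values were 7.49 and 5.58 against 10.5 and 21.9, with no overlap and no call. These came from sites at +2.2 kb and, past the gene's end, at +9.7 kb. The RNAPII-pS2 calls were lost without any of the 4 libraries compared for Aim2 and Nlrc4 (adjusted p up to 0.0868 and 0.11), without 3 of them for Nlrp1b (all but IL-4 PT/ctrl replicate 2, up to 0.121) and without 3 for Pycard (all but ctrl/ctrl replicate 2, up to 0.128). The macrophage markers summed to 574.58 to 663.78 of RNAPII-pS2 in ctrl/ctrl and 440.93 to 493.37 in IL-4 PT/ctrl, and the markers of other cells to 179.93 to 186.68 and 152.72 to 182.76. Nlrp1b reads may be shared with near-identical neighbouring copies of the gene, so its values are uncertain.

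The sum at Nlrp1b reflected 2 places with peaks of every antibody. Of these the upstream place lies in a non-coding transcript outside the Nlrp1b span, so its signal may not belong to Nlrp1b. At its promoter RNAPII-pS2 scored 34.7 and 36.1 in ctrl/ctrl, 12.1 and 23.6 in IL-4 PT/ctrl, 60.0 and 74.9 in ctrl/LPS, and 40.5 and 34.4 in IL-4 PT/LPS. About 21 kb upstream it scored 25.3 and 29.1, 12.9 and 16.6, 34.7 and 29.8, and 17.3 and 14.6 in the same order. At both places each library with IL-4 PT scored below both of its counterparts without IL-4.

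IL-4 PT before LPS gave no RNAPII-pS5 call among the 9 members tested (14.1% of all genes were called), with 2 at an unadjusted p of at most 0.05 (3481 of 10889 over all genes). The median was −0.32 for the members and 0.23 for all genes. Nlrp3 had 39.9 and 40.9 in ctrl/LPS and 35.7 and 38.5 in IL-4 PT/LPS (−0.41 ± 0.20, adjusted p = 0.252), Nlrp1b had 37.1 and 39.5 against 20.2 and 31.2 (adjusted p = 0.0764), and Pycard 4.45 and 5.48 against 13.0 and 13.3 (adjusted p = 0.153). Casp4 had 26.7 and 28.0 against 25.1 and 23.7, and Mefv 60.7 and 60.1 against 58.2 and 60.1.

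RNAPII-pS2 was lower after IL-4 PT under LPS at Nlrp1b and Aim2, 2 of 10 genes (12.4% of all genes were called), with 6 at an unadjusted p of at most 0.05 (3581 of 12595 over all genes). The median was −0.40 for the members and 0.06 for all genes. Nlrp1b had 94.7 and 104.7 in ctrl/LPS and 69.5 and 53.2 in IL-4 PT/LPS (−0.76 ± 0.19, adjusted p = 0.0457). Aim2 had 97.0 and 96.3 against 68.2 and 73.1 (−0.50 ± 0.13, adjusted p = 0.0489). Nlrc4 had 22.8 and 23.6 against 9.32 and 12.3 (adjusted p = 0.0559), Pycard 4.23 and 4.12 against 14.1 and 10.8 (0.0954), and Nlrp3 50.2 and 52.2 against 46.4 and 43.7 (0.395). The Nlrp1b call was kept only without IL-4 PT/ctrl replicate 1 and the Aim2 call with no library left out (adjusted p up to 0.194 for both), and neither passed without centring or by ranks. The macrophage markers summed to 524.58 to 542.65 in ctrl/LPS and 401.82 to 438.68 in IL-4 PT/LPS, and the markers of other cells to 253.25 to 274.04 and 259.95 to 273.39.

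Whether the LPS response differed after IL-4 PT was tested by the interaction of both treatments. None of the members passed for RNAPII-pS5 (0 of 9, 5.62% of all genes) or RNAPII-pS2 (0 of 10, 5.33%), with 0 and 2 at an unadjusted p of at most 0.05 (2957 of 12477 and 3332 of 13663 over all genes). For Nlrp3 RNAPII-pS5 the interaction was 0.57 (adjusted p = 0.288). With shares this low over all genes, a count of 0 among so few genes says nothing particular about them.

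**Figure D4:**
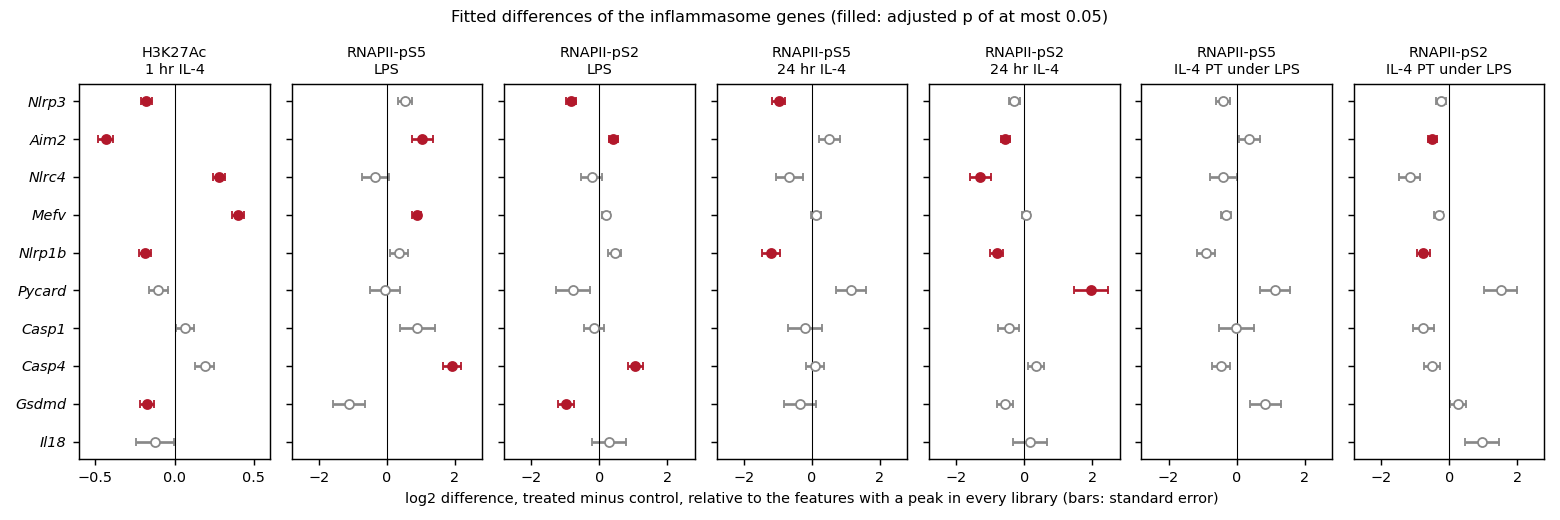
Log2 differences (± SE) of the inflammasome genes for H3K27Ac, RNAPII-pS5 and RNAPII-pS2 in 7 comparisons, with the gene on the vertical axis and called differences (adjusted p of at most 0.05) as filled points. Aim2 is at −0.43 and Mefv at 0.40 for H3K27Ac after 1 hr of IL-4, and Casp4 at 1.90 for RNAPII-pS5 with LPS.

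p65 peaks at the members were more numerous with LPS, as over the genome, where a library held 9556 to 11026 peaks without LPS, 26305 to 26820 in ctrl/LPS and 36738 to 38955 in IL-4 PT/LPS. Of 32 member sites with a peak in ctrl/ctrl or ctrl/LPS, 17 were called with LPS, 13 higher and 4 lower (39.8% of all sites were called). The median difference was 0.32 for the members and 0.64 for all sites. The score at sites present in every library was itself 12.33 and 12.55 in ctrl/ctrl and 25.6 and 25.73 in ctrl/LPS, and the differences are relative to that gain. Of the 13 higher sites, 8 had peaks in LPS libraries alone and so entered the fit through the libraries where they are high. Their calls restate that the peak was absent without LPS, as do such calls in the share over all sites, and they are described without a p. Among the 12 member sites with a peak in all 8 libraries, 5 were called when such sites alone were fitted, 2 higher and 3 lower.

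Among the sites without p65 in the absence of LPS, the Casp4 site at +3.1 kb printed above scored 36.0 and 36.5 in ctrl/LPS and 33.3 and 50.2 in IL-4 PT/LPS. The Aim2 site at −8.5 kb scored 30.0 and 35.9, and 43.2 and 34.8. The Mefv site at +33.5 kb scored 33.7 and 25.5, and 35.2 and 38.1. The Nlrp3 site at +11.7 kb scored 11.4 and 13.8, and 20.4 and 19.2. Weaker sites of the same kind were Il18 at +2.3 kb, with 11.8 and 11.0 in ctrl/LPS, Il18 at +5.0 kb, with 7.4 and 16.1, and Casp1 at +1.7 kb, with 6.7 and 4.1, and Aim2 at +31.9 kb, with 8.2 and 10.6. Higher with LPS by the test, with no peak in ctrl/ctrl but peaks in IL-4 PT/ctrl, were Aim2 at +31.3 kb, with 8.2 and 11.6 in ctrl/LPS (adjusted p = 0.00813), and the Pycard promoter, with 4.5 and 9.3 (0.0417). Both the size and the direction of a fitted difference against libraries with no peak depend on the value set for a missing peak. With that value 4 times as high, Casp1 +1.7 kb was lower with LPS (−0.86, adjusted p = 0.00339), and the Pycard promoter (−0.63), Aim2 +31.3 kb (−0.15) and Aim2 +31.9 kb (−0.21) had negative differences that did not pass.

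At sites with p65 before LPS, scores rose at Mefv +3.2 kb, from 8.7 and 9.1 to 45.8 and 50.5 (1.39 ± 0.36, adjusted p = 0.0255), at the Nlrc4 promoter (−15 bp), from 10.6 and 10.5 to 36.9 and 48.0 (0.95 ± 0.25, adjusted p = 0.0248), and at Nlrp3 −7.8 kb, from 6.7 and 7.2 to 31.7 and 21.2 (0.85 ± 0.27, adjusted p = 0.0448). The last was kept only without ctrl/LPS replicate 2 (adjusted p up to 0.175 otherwise). The strongest p65 sites at Nlrp3 and Mefv changed no more than the sites of every library: Nlrp3 at −1.2 kb had 59.4 and 58.4 in ctrl/ctrl and 127.6 and 123.2 in ctrl/LPS (0.05 ± 0.08, adjusted p = 0.725), and Mefv at −5.0 kb 66.8 and 56.6 against 149.7 and 147.4 (0.23 ± 0.19, adjusted p = 0.396).

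Called decreases were Aim2 at −131 bp, with peaks of 6.3 and 5.0 in ctrl/ctrl and none elsewhere, Aim2 at +9.9 kb, Mefv at +11.2 kb and the Casp4 promoter (−39 bp). The Casp4 promoter scored 61.3 and 49.5 in ctrl/ctrl, 38.9 and 42.7 in IL-4 PT/ctrl, 58.6 and 65.2 in ctrl/LPS and 53.9 and 62.8 in IL-4 PT/LPS (−0.88 ± 0.17, adjusted p = 0.00881 for LPS), and its difference was 0.17 without centring. p65 had a peak at the Casp4 promoter, which holds an NF-kB match, in every library. At the Casp4 +3.1 kb site, whose 201 bases hold no exact match, it had one in the LPS libraries alone. Of all p65 sites 11.9% hold an exact match, so its absence is common.

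The LPS call at the Casp4 promoter was kept whichever library was left out. That of the Nlrc4 promoter was lost without either ctrl/ctrl library or ctrl/LPS replicate 2 (adjusted p up to 0.115), those of Mefv +3.2 kb and +11.2 kb without any library but the IL-4 PT/ctrl pair (up to 0.0977 and 0.163) that of Aim2 +31.3 kb without ctrl/ctrl replicate 2 (0.0501) and that of the Pycard promoter without any but ctrl/LPS replicate 1 (0.137). Without ctrl/ctrl replicates 1 or 2 the calls numbered 8 and 7, and without ctrl/LPS replicate 2 they numbered 11.

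IL-4 for 24 hr alone changed p65 at 4 of 21 member sites with a peak in either group (10.1% of all sites were called). The medians were −0.24 for the members and 0.26 for all sites. Nlrp3 at −7.8 kb lost its peak, with 6.7 and 7.2 in ctrl/ctrl and none in IL-4 PT/ctrl (adjusted p = 0.0115), as did Aim2 at −131 bp, whose peaks in ctrl/ctrl alone brought it into the fit. Peaks of 6.3 and 3.4 appeared at Aim2 +31.3 kb and of 5.5 and 4.5 at the Pycard promoter (+71 bp), where ctrl/ctrl had none (adjusted p = 0.0353 and 0.0441). At each called site either ctrl/ctrl or IL-4 PT/ctrl had no peak, so the test set scores against the value used for a missing peak. With that value 4 times as high none of the member sites was called. No member site was called when either ctrl/ctrl library was left out, and Aim2 at −131 bp could then not be tested. Without either IL-4 PT/LPS library the calls numbered 2. Nlrp3 at −1.2 kb had 59.4 and 58.4 against 38.9 and 37.2 (−0.43 ± 0.08, adjusted p = 0.0505).

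Under LPS, IL-4 PT changed p65 at 6 of 35 member sites, 4 higher and 2 lower (31.3% of all sites were called). The medians were −0.09 and 0.41. The 4 higher sites had peaks in IL-4 PT/LPS alone, which is what brought them into the fit, so their calls are no further support. Nlrp3 at +1.5 kb, in its intron 2, scored 14.1 and 14.1 in IL-4 PT/LPS and had no peak in the 6 other libraries. The others were Gsdmd at +7.5 kb, with 9.2 and 7.1, Aim2 at +6.0 kb, with 4.6 and 8.5, and Aim2 at +57.1 kb, with 4.6 and 5.2, and the last had a negative difference (−0.27, adjusted p = 0.00892) with a value for a missing peak 4 times as high. The site named Nlrp1b −20.8 kb, outside the span of that gene, was lower. It had 37.6 and 29.4 in ctrl/LPS and 13.6 and 14.6 in IL-4 PT/LPS (−1.51 ± 0.30, adjusted p = 0.0125). Il18 at +2.3 kb was also lower, with 11.8 and 11.0 against none and 6.0 (adjusted p = 0.0487). Calls numbered 1 without IL-4 PT/LPS replicate 1 and 2 without replicate 2, when the sites with a peak in these libraries alone could not be tested. The Il18 call was lost without any of the other 6 libraries (adjusted p up to 0.139), and that of Nlrp1b was lost without either IL-4 PT/LPS library or ctrl/LPS replicate 1 (up to 0.123). The IL-4 PT/LPS libraries hold more peaks than ctrl/LPS over the whole genome, and the part of this in the sites found there alone was not tested.

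The interaction passed at 8 of 36 p65 member sites (23.3% of all sites), with medians of −0.13 for the members and 0.26 for all sites. Of these, 5 had peaks in 1 group alone (the 4 sites of IL-4 PT/LPS and Aim2 −131 bp of ctrl/ctrl), so that their calls restate the filter. The other 3 were Nlrp3 −7.8 kb, Aim2 +31.3 kb and the Nlrc4 promoter, and 0 of 12 were called when the sites with a peak in every library alone were fitted. At the Nlrc4 promoter p65 went from 10.6 and 10.5 to 36.9 and 48.0 with LPS, and after IL-4 PT from 19.0 and 14.4 to 28.4 and 42.1. The interaction calls numbered 3 without either ctrl/ctrl library, 0 without IL-4 PT/LPS replicate 1 and 1 without replicate 2.

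RNAPII, a readout that was not used to find the p65 sites, differed among the 13 sites where p65 was called higher with LPS. RNAPII-pS2 peaks overlapped 11 of them (both Aim2 sites near +31 kb share 1 peak). Both ctrl/LPS libraries scored above both ctrl/ctrl libraries at 4, below them at 3, and overlapped at 4. RNAPII-pS5 peaks overlapped 9, of which 3 were above, 1 below and 5 overlapping. These orders are of raw scores, with a missing peak taken as lowest, and were not counted over all RNAPII sites. They are thus not a result about the members. For genes with a peak in every library the median RNAPII-pS5 sum was 21.33 and 19.68 in ctrl/ctrl and 15.95 and 16.77 in ctrl/LPS. The median RNAPII-pS2 sum was 25.33 and 23.9 in ctrl/ctrl and 29.63 and 27.89 in ctrl/LPS. At Casp4 +3.1 kb RNAPII-pS2 had no peak in the 4 libraries without LPS, 18.5 and 19.1 in ctrl/LPS and 9.7 and 8.2 in IL-4 PT/LPS, and RNAPII-pS5 had 15.1 and 12.3 in ctrl/LPS and 5.3 and none in IL-4 PT/LPS. At Aim2 −8.5 kb RNAPII-pS2 scored 4.9 and 5.25 in ctrl/ctrl, 10.4 and 15.3 in IL-4 PT/ctrl, 62.9 and 50.3 in ctrl/LPS, and 37.3 and 51.1 in IL-4 PT/LPS. At Il18 +5.0 kb RNAPII-pS2 had no peak without LPS, 8.6 and 13.9 in ctrl/LPS and 26.8 and 17.9 in IL-4 PT/LPS. At the Nlrc4 promoter RNAPII-pS2 scored 12.8 and 10.8 in ctrl/ctrl and 22.8 and 23.6 in ctrl/LPS, but RNAPII-pS5 12.9 and 13.0 against 6.81 and 9.72.

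The opposite order was found at other sites with higher p65. At Il18 +2.3 kb RNAPII-pS2 scored 8.87 and 6.66 in ctrl/ctrl and 10.9 and 6.14 in IL-4 PT/ctrl and had no peak in any LPS library. At Mefv +3.2 kb it went from 29.1 and 33.2 in ctrl/ctrl to 27.8 and 17.7 in ctrl/LPS. The Casp1 p65 site at +1.7 kb is overlapped by wide RNAPII sites over the gene's start. That of RNAPII-pS2, with its strongest peak at +181 bp, went from 28.5 and 21.7 to 17.8 and 18.1. These values therefore do not show RNAPII at +1.7 kb itself. At Nlrp3 +11.7 kb RNAPII-pS2 was absent and 4.82 in ctrl/ctrl and 4.93 and 4.61 in ctrl/LPS. At the Mefv site about 4.8 kb upstream, where p65 was present in every library and not called with LPS, RNAPII-pS5 scored 11.1 and 10.6 in ctrl/ctrl, 23.6 and 19.1 in IL-4 PT/ctrl, 38.0 and 36.7 in ctrl/LPS and 37.6 and 39.6 in IL-4 PT/LPS.

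**Figure D5:**
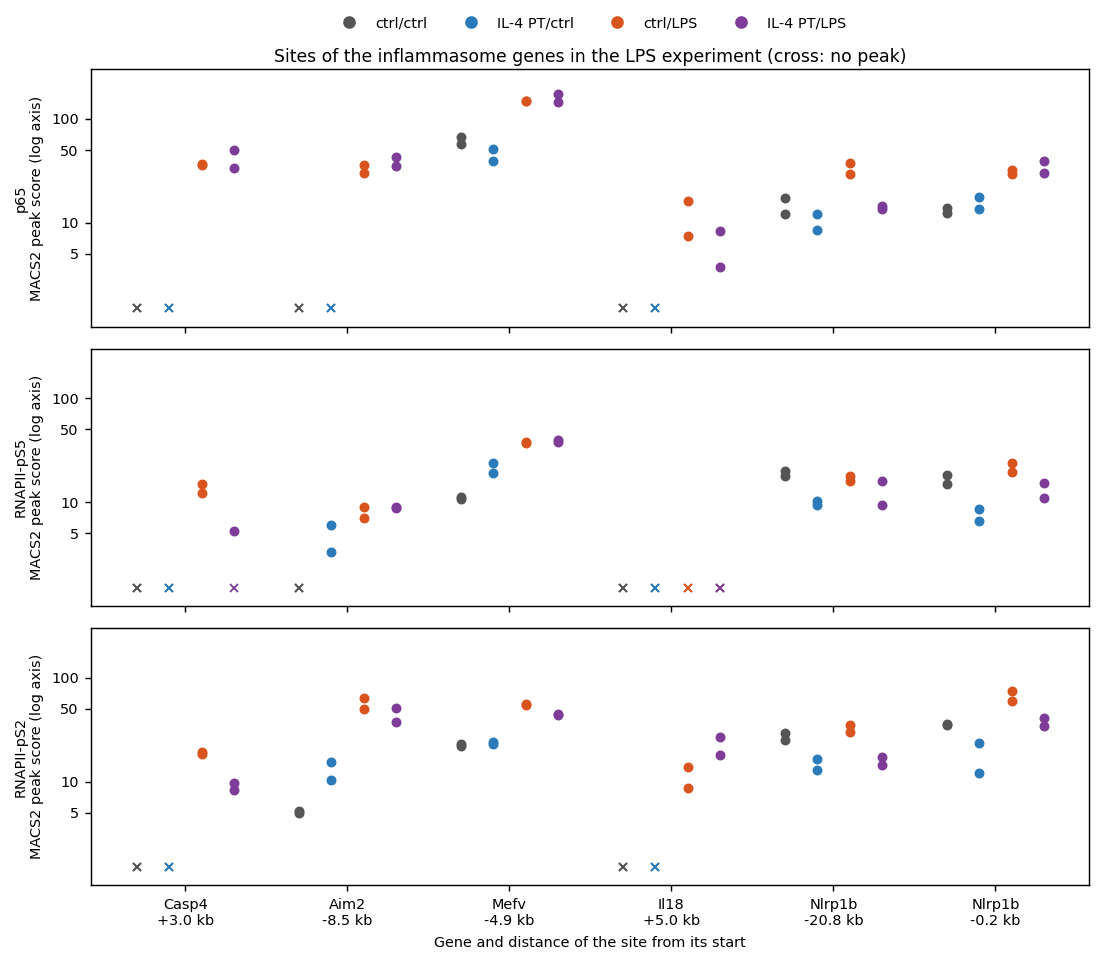
MACS2 scores of p65, RNAPII-pS5 and RNAPII-pS2 in the 4 groups of the LPS experiment at sites they share, on log axes, each point 1 library and a cross for no peak. At the Casp4 site about 3 kb downstream of the start, p65 and RNAPII-pS2 peaks are absent without LPS and score 36.0, 36.5 and 18.5, 19.1 in ctrl/LPS.

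Other genes of the pathway, from a list of 32 regulators, further sensors and outputs, were called as follows. For RNAPII-pS5 with LPS 7 of 26 tested rose and 2 fell (30.1% of all genes were called), among them Tnfaip3, a brake on NF-kB signalling, which rose by 1.32 (adjusted p = 0.00234), and Gbp5, a guanylate-binding protein, which rose by 3.91 (0.00371). For RNAPII-pS2 with LPS 7 of 26 rose and 3 fell (34.0%), among them Il1a (1.11, adjusted p = 0.00068), Il1rn, the gene of the IL-1 receptor antagonist (1.81, 0.00069), and Txnip, a thioredoxin-binding regulator (−1.70, 0.00253). After 24 hr of IL-4 (10.3% and 20.1% of all genes for the 2 marks), RNAPII-pS5 rose at 2 of 28, Nlrp10 (2.93, adjusted p = 0.00595) and Naip1 (2.63, 0.00934), and fell at 2, Zbp1 (−1.82, 0.0193) and Gm12250 (−1.92, 0.0197), while RNAPII-pS2 rose at 4 of 28 and fell at 4, with Il1rn at 1.11 (0.00534) and Gbp2 at −1.25 (0.0112). IL-4 PT under LPS gave 0 of 25 for RNAPII-pS5 (14.1% of all genes) and 1 lower of 27 for RNAPII-pS2 (12.4%), Dpp9 (−2.82, adjusted p = 0.0122).

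After 1 hr of IL-4, H3K27Ac rose at 6 of 28 such genes and fell at 4 (36.2% of all genes were called), including Zbp1 (0.99, adjusted p = 0.00367), a sensor of Z-form nucleic acid, Il1a (0.97, 0.00775) and Naip2 (−0.83, 0.00756), which acts with NLRC4. p300 rose at 35 of 182 sites of these genes and fell at 22 (21.0% of all sites). For HDAC3 2 of 61 sites rose and 1 fell (1.32%), and for HDAC1 0 of 86 (0.0%), HDAC2 0 of 90 (0.00404%) and PU.1 0 of 185 (0.0735%) were called. RNAPII-pS5 rose at 1 of 27 genes (1.33%) and RNAPII-pS2 at 1 of 24 (5.44%, in the libraries labelled IL-4). p65 with LPS rose at 49 of 119 sites and fell at 8 (39.8% of all sites).

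Over the 8 RNAPII-pS5 libraries of the LPS experiment, the genes whose summed score followed Nlrp3 most closely, among 5015 with a peak in every library, were Cpd (Pearson r = 0.988), Ly6i (0.987), Eci2 (0.983), Ifitm3 (0.977) and Aoah (0.977). In all 112 genes had r above 0.9. The 8 points share 4 conditions, libraries and depth, so this is a description.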

How the data were processed

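The 56 peak lists hold ChIP-seq peaks of 9 antibodies in mouse BMDMs, 28 groups with 2 replicates each. Reads were aligned by the authors with BWA 0.7.10 to mm10 and handled with SAMtools 0.1.19, and peaks were called per library with HOMER 4.2 or MACS2 2.0.10, with blacklisted regions removed and genes assigned by nearest start. In 52 lists the deposited values are MACS2 peak scores, −log10 of a p-value or q-value as judged from the values, and in 4 H3K27Ac lists the deposited value is normalized tag signal in regions of 1001 bp. The lists give no read totals, so depth is unknown and the precision rests on the 2 libraries a group.

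For RNAPII and H3K27Ac the scores of all peaks of a gene were summed. For the other antibodies peaks of all libraries were merged (at least 1 bp) into sites, each with its highest score. A missing value was set to the lowest score of the set, values were taken to log2 and each library was centred on the median of features with a peak in every library. Features with a peak in at least 2 libraries were fitted with limma 3.58.1 in R 4.3.3 (eBayes with a trend), the 8 libraries of an LPS set in one fit, with Benjamini-Hochberg adjustment over all features. A rule added after the data were seen counts a feature in a comparison only where a library of the groups compared has a peak: in p65 with LPS it left out 4 member sites, all called, and 7741 sites in all, of which 5761 were called. The members and lists were chosen with earlier results of these data known. Some genes of the lists are included in the counts but not reported here by name. All members are named, other pathway genes only where called and with at most 4 per comparison, by adjusted p. The code was tested on simulated data. Alternatives to the scaling, the missing value, the filters, the peaks summed and the libraries used are in the closing section.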

Additional observations from a re-analysis of the deposited data

Results flagged for a closer look

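For 8 p65 sites of the inflammasome genes the effect of LPS differed with and without IL-4 PT by the interaction term (log2 scale, limma, adjusted over all sites). At 3 of them peaks were present in more than 1 group: it was 1.40 (SE 0.377, adjusted p = 0.0487) at Nlrp3 −7.8 kb, −1.39 (SE 0.347, adjusted p = 0.038) at the Nlrc4 promoter and −2.43 (SE 0.481, adjusted p = 0.017) at Aim2 +31.3 kb. The other 5 had peaks in 1 group alone, through which they entered the fit, so that the term restates the filter and no p is given: 2.96 at Nlrp3 +1.5 kb, 2.17 at Gsdmd +7.5 kb, 1.79 at Aim2 +6.0 kb and 1.44 at Aim2 +57.1 kb, with peaks in IL-4 PT/LPS alone, and 1.64 at Aim2 −131 bp, with peaks in ctrl/ctrl alone. In 7 of the 8, all but the Nlrc4 promoter, at least 1 group had no peak, so the size rests on the value set for a missing peak, and at Nlrp3 −7.8 kb and at Aim2 −131 bp, +6.0 kb and +57.1 kb the sign turned when that value was 4 times as high. The Nlrc4 promoter did not pass without any 1 of the 8 libraries (adjusted p up to 0.199), nor Nlrp3 −7.8 kb without any but ctrl/LPS replicate 1 (up to 0.249), and Aim2 +31.3 kb was lost without either IL-4 PT/LPS library or either ctrl/ctrl library (up to 0.118).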

How the results depend on the processing

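Of 65 called values, 25 stayed past the threshold in each fit with 1 library left out that could test them, 40 were lost without at least 1, none then changed sign, and 17 changed sign under some other alternative. Why a value moved was not tested unless stated. Changing the value set for a missing peak and the peaks that are summed turned signs most often, and depth and replication limit every result.

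Leaving out 1 library at a time gave 3 to 4 called members for H3K27Ac (6 with all libraries), 2 to 4 for RNAPII-pS5 LPS (3), 0 to 1 for RNAPII-pS5 24 hr IL-4 (2), 1 to 4 for RNAPII-pS2 LPS (4), 0 to 4 for RNAPII-pS2 24 hr IL-4 (4) and 0 to 1 for RNAPII-pS2 IL-4 PT under LPS (2). For sites it gave 4 to 13 for p300 (9), 7 to 14 for p65 LPS (17), 0 to 4 for p65 24 hr IL-4 (4), 1 to 8 for p65 IL-4 PT under LPS (6), 0 to 7 for the p65 interaction (8) and 0 to 1 for PU.1 (0). It was 0 to 0 for HDAC1, HDAC2, HDAC3, both RNAPII marks at 1 hr, RNAPII-pS5 IL-4 PT under LPS and both RNAPII interactions. Where a group was left with 1 library, that library was assumed to vary like the others.

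Calls that moved by over 1.5 times follow. Without centring they were 1 for RNAPII-pS5 24 hr IL-4, 0 for RNAPII-pS2 IL-4 PT under LPS and 0 for p300, by ranks 0 for RNAPII-pS2 IL-4 PT under LPS, and with the floor set after centring, an alternative chosen after seeing the data, 1 there. With a floor 4 times as high they were 1 for PU.1, 1 for RNAPII-pS2 IL-4 PT under LPS, 0 for p65 24 hr IL-4 and 10 for p65 IL-4 PT under LPS. Without a trend in eBayes they were 3 for H3K27Ac, 1 for RNAPII-pS5 1 hr IL-4, 1 for RNAPII-pS5 LPS, 0 for RNAPII-pS5 24 hr IL-4, 2 for RNAPII-pS2 24 hr IL-4, 1 for RNAPII-pS2 IL-4 PT under LPS and 1 for p300. With a peak in at least 1 library asked for they were 1 for PU.1, 1 for RNAPII-pS2 IL-4 PT under LPS, 3 for p300 and 5 for the p65 interaction, and with a peak in every library 1 for PU.1, 5 for p65 LPS, 1 for p65 24 hr IL-4, 1 for p65 IL-4 PT under LPS and 0 for the p65 interaction, where fewer sites were tested. With the upper 50% of peaks they were 1 for RNAPII-pS5 24 hr IL-4, 1 for the RNAPII-pS5 interaction, 1 for RNAPII-pS2 24 hr IL-4, 0 for RNAPII-pS2 IL-4 PT under LPS, and 11, 1, 3 and 5 for p65 with LPS, 24 hr IL-4, IL-4 PT under LPS and the interaction. With peaks that cover 50% of a site p300 had 4.

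With no intergenic peaks the calls were 1 for RNAPII-pS5 LPS, 1 for RNAPII-pS5 24 hr IL-4, 1 for RNAPII-pS2 LPS, 0 for RNAPII-pS2 IL-4 PT under LPS and 1 for the RNAPII-pS2 interaction. With the highest peak of a gene they were 0 for RNAPII-pS5 24 hr IL-4, 2 for RNAPII-pS2 LPS and 1 for RNAPII-pS2 24 hr IL-4. With promoter peaks only they were 1 for H3K27Ac, 1 and 0 for RNAPII-pS5 with LPS and 24 hr IL-4, and 2, 0, 1 and 1 for RNAPII-pS2 with LPS, 24 hr IL-4, IL-4 PT under LPS and the interaction. At an unadjusted p of at most 0.05 they were 4, 2, 3 and 2 for HDAC1, HDAC2, HDAC3 and PU.1, 2 and 1 for RNAPII-pS5 and RNAPII-pS2 at 1 hr, 5 for RNAPII-pS5 LPS, 2 for RNAPII-pS5 IL-4 PT under LPS, 6 and 2 for RNAPII-pS2 IL-4 PT under LPS and interaction, and 9 and 10 for p65 24 hr IL-4 and IL-4 PT under LPS. Over all features it was 5082 of 11749 for RNAPII-pS5 LPS. For p65 it was 3872 of 16313 with 24 hr IL-4 and 14904 of 37081 with IL-4 PT under LPS.

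Same-numbered replicates did not deviate together (r from −0.048 to 0.060), and the main fits leave the libraries unpaired. Such a correlation cannot exclude that same-numbered libraries were prepared together. With the replicate block the calls were 3 for H3K27Ac, 1 for RNAPII-pS5 24 hr IL-4, 0 for RNAPII-pS2 IL-4 PT under LPS and 2 for p65 24 hr IL-4, and elsewhere within 1.5 times the count without it.

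Signs that turned, as log2 differences, were these. With promoter peaks only: for RNAPII-pS5 LPS, Casp4 −1.4 and Nlrp3 −2.97, for RNAPII-pS2 LPS, Aim2 −0.25, Casp4 −3.36, Nlrc4 1.34 and Nlrp3 0.70, Aim2 0.71 for RNAPII-pS2 IL-4 PT under LPS, and Nlrp3 −4.23 for the RNAPII-pS2 interaction. With no intergenic peaks, Aim2 −1.43 and Nlrp3 0.10, and with the highest peak, Casp4 −0.18 and Nlrp3 0.044, all for RNAPII-pS2 LPS. Without centring, Gsdmd −5.0 kb p300 0.0454 and Casp4 −39 bp p65 LPS 0.17. With the floor 4 times as high, for p65 LPS, Aim2 +31.3 kb −0.15 and +31.9 kb −0.21, Pycard +71 bp −0.63 and Casp1 +1.7 kb −0.86, for 24 hr IL-4 Aim2 −131 bp 0.0608, for IL-4 PT under LPS Aim2 +57.1 kb −0.27, and for the interaction Nlrp3 −7.8 kb −0.60 and Aim2 −131 bp −0.33, +6.0 kb −0.11 and +57.1 kb −0.46. The Nlrp3 −7.8 kb interaction was −1.03 with the upper 50% of peaks and −1.04 with peaks that cover 50% of the site.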
